A study of Mus musculus with 6 samples.

Results

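Retinoic acid is the signal that 10 mouse genes examined here make, destroy, carry or receive. They are Cyp26a1, Cyp26b1 and Cyp26c1, which encode the enzymes that degrade it, Aldh1a1, Aldh1a2 and Aldh1a3, which encode the enzymes that produce it, the receptor genes Rara, Rarb and Rarg, and Crabp2, which encodes a cellular binding protein. They were chosen by name out of 21887 protein-coding genes, with the peak calls of both marks in these same libraries already known. Cyp26b1 in particular had stood out by the position of its H3K27me3 domain. All values below are therefore descriptions, and none is tested. For each gene, the peaks of H3K4me3 and H3K27me3 were read over the RefSeq gene span of GRCm38 and 10 kb either side.

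The cells were neural stem and progenitor cells from the forebrain of mouse embryos at E13.5, grown in culture with EGF and FGF. The control group received water and the other group 10 mM crotonate, each for 24 h. Crotonate, from a short-chain fatty acid, is converted in cells to crotonyl-CoA, from which histones can be crotonylated. CUT&Tag, in which an antibody guides a transposase to cut beside a histone mark, was made for H3K4me3 and H3K27me3. Each mark had 1 library from each treatment, so differences between treatments could not be set against replicates, and none carries a p-value. How many embryos or cultures stood behind a library is not given in the sources used here, and IgG libraries were not analysed here.

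In embryos, retinol is oxidised to retinaldehyde and then, by ALDH1A enzymes, to retinoic acid, and CYP26 enzymes clear the product. Retinoic acid receptors sit on DNA as dimers with retinoid X receptors at response elements, where the unliganded pair recruits co-repressors and the liganded pair recruits co-activators. Retinoic acid patterns the hindbrain and spinal cord, and in neural progenitors it is known for promoting neuronal differentiation. Rarb and Cyp26a1 are textbook direct targets of the receptors, which gives the pathway its own feedback. H3K4me3 marks active and poised promoters, and H3K27me3 is the Polycomb mark of silenced developmental genes.

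The promoter sequences of Rarb and Cyp26a1 are shown because they share the same kind of response element but lay under different marks. The element searched was a direct repeat of the core hexamers AGGTCA or AGTTCA or GGGTCA or GGTTCA, spaced by 1, 2 or 5 bases, on both strands, in the window from 250 bases before to 50 after each start listed by RefSeq (GRCm38.p6). The 5-base spaced repeat was found in 32 of 32817 such windows (0.0975%), and 2 of the 13 windows of members held it. The 2-base and 1-base spaced repeats were in 88 (0.268%) and 73 (0.222%) windows, and in 0 of the 13. Of the 10 genes, 8 have a window in the table. Capitals mark the hexamers.
Rarb, chr14:16575427-16575726, minus strand: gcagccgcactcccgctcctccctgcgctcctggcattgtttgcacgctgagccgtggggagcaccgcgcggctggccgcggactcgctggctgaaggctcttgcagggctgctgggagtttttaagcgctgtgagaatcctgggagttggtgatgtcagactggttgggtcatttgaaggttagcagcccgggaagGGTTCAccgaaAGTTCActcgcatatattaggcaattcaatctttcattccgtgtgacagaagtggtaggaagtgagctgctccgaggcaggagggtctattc
Cyp26a1, chr19:37697558-37697857, plus strand: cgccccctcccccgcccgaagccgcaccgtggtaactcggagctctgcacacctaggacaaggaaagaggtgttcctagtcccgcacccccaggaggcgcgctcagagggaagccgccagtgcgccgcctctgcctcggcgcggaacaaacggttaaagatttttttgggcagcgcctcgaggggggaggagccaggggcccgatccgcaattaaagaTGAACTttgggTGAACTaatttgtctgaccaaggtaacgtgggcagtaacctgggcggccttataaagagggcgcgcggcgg

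At Rarb the repeat reads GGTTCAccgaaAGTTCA from base -53 to base -37 of the listed start. At Cyp26a1 it reads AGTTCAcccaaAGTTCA on the strand opposite to the gene, from base -32 to base -16. The Rarb window lay wholly inside an H3K4me3 peak in both lists and touched no H3K27me3 peak in either. The Cyp26a1 window lay wholly inside an H3K27me3 peak in both lists and touched no H3K4me3 peak in either. Both windows were richer in CpG than the median window: observed to expected ratios were 0.696 for Rarb and 0.894 for Cyp26a1, against 0.383 over all windows. A match to these letters is a description of the sequence and does not show that a receptor was bound.

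Over all libraries, the lists held 13221 and 16007 peaks of H3K4me3 after water and crotonate, and 7643 and 15879 peaks of H3K27me3. All of them had q under 0.05. Fragment totals are not in the lists, so depth is unknown and lists of the same mark may differ in power to call a peak. Of 8 progenitor marker genes, among them Sox2, Nes and Pax6, 8 had H3K4me3 in both lists by the same reading, against 61.6% and 65.3% of all genes. Of 5 neuronal markers 4 had it in both lists, of 3 astrocyte markers 2, of 4 oligodendrocyte lineage markers 3, and of 3 microglial markers 1. Vessel and fibroblast markers had it at 0 of 4 after water and 1 of 4 after crotonate (Col1a1), and the part of other cell types in the results was not tested. H3K27me3 was at 3 of the 8 progenitor markers in both lists, Hes1, Hes5 and Sox1, against 14.1% and 20.1% of all genes. After water and crotonate it was at 2 and 3 of 5 neuronal markers and at 1 and 2 of 4 oligodendrocyte lineage markers. For vessel and fibroblast markers the counts were 1 and 2 of 4, and astrocyte and microglial markers had none. In a bulk library, a mark in fewer cells and less of it per cell cannot be told apart.

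Cyp26a1 and Cyp26c1 stood under 1 shared Polycomb domain. The pair lies in tandem on chromosome 19, Cyp26c1 from 37685112 to 37693320 and Cyp26a1 from 37697738 to 37701536, so their values are not independent. The H3K27me3 peak over both genes spanned 37685274 to 37702568 after water (17.3 kb) and 37684303 to 37702896 after crotonate (18.6 kb). Its authors' fold enrichment over local background was 32.6 in the water list and 19.4 in the crotonate list, with −log10 q of 111 and 90.7. The implied background at the summit was 1.71 and 4.0, so the fold values do not compare the domain between lists. Each value ranked above 96.2% and 97.1% of the peaks of its own list, and ranks in lists of different length show no change. The listed start sites of both genes were inside this domain in both lists.

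No H3K4me3 peak was called at either gene after water. After crotonate a peak of 500 bp was called from 37692871 to 37693370, across the 3′ end of Cyp26c1. It lay 4.44 kb before the listed start of Cyp26a1, wholly inside the H3K27me3 domain. The position also falls within Gm32342, a long non-coding RNA gene on the opposite strand whose listed start lies 262 bp from that of Cyp26a1. The peak had −log10 q of 10.9 and a fold enrichment of 8.49, above 21.8% of the crotonate list. Its summit stood at 34 steps of the pileup scale (95% Poisson interval 23.5 to 47.5). A step is the smallest unit by which pileups in a list differ. It was 0.2599 and 0.4025 for H3K4me3 after water and crotonate, and 0.2867 and 0.6357 for H3K27me3. Neither pileups nor step counts therefore compare peaks between lists. If 1 step is 1 fragment, the intervals given here cover counting error only.

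Cyp26b1, on chromosome 6 from 84571414 to 84593908 on the minus strand, carried both marks inside the gene and neither at its listed start. The H3K27me3 domain was 11.8 kb long in the water list and 12.5 kb in the crotonate list, and 10198 bp were common to both. Its edge nearest to the listed start lay 1.70 kb away after water and 3.33 kb away after crotonate, while the far edge moved 2273 bp towards the 3′ end. The domain thus lay further into the gene in the crotonate list. A separate H3K27me3 peak of 2.80 kb, from 84574476 to 84577278, was called after crotonate only, with 17 steps at the summit (9.90 to 27.2) and −log10 q of 6.23. The domain itself had −log10 q of 181 and 189, above 98.2% and 98.8% of the respective lists.

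H3K4me3 at Cyp26b1 lay within that domain. After water 2 short peaks of 913 and 1172 bp were called, both wholly on H3K27me3. After crotonate 1 peak of 2863 bp, from 84587094 to 84589956, covered both of them and the gap between, again wholly on H3K27me3. A further peak of 309 bp appeared at 84585445 to 84585753, with 15 steps at the summit (8.40 to 24.7) and −log10 q of 2.89. The −log10 q values of the water peaks were 9.50 and 5.89, and the joined peak had 19.1, above 28.0% of its list. H3K4me3 covered 2.08 kb of the region after water and 3.17 kb after crotonate.

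**Figure D1:**
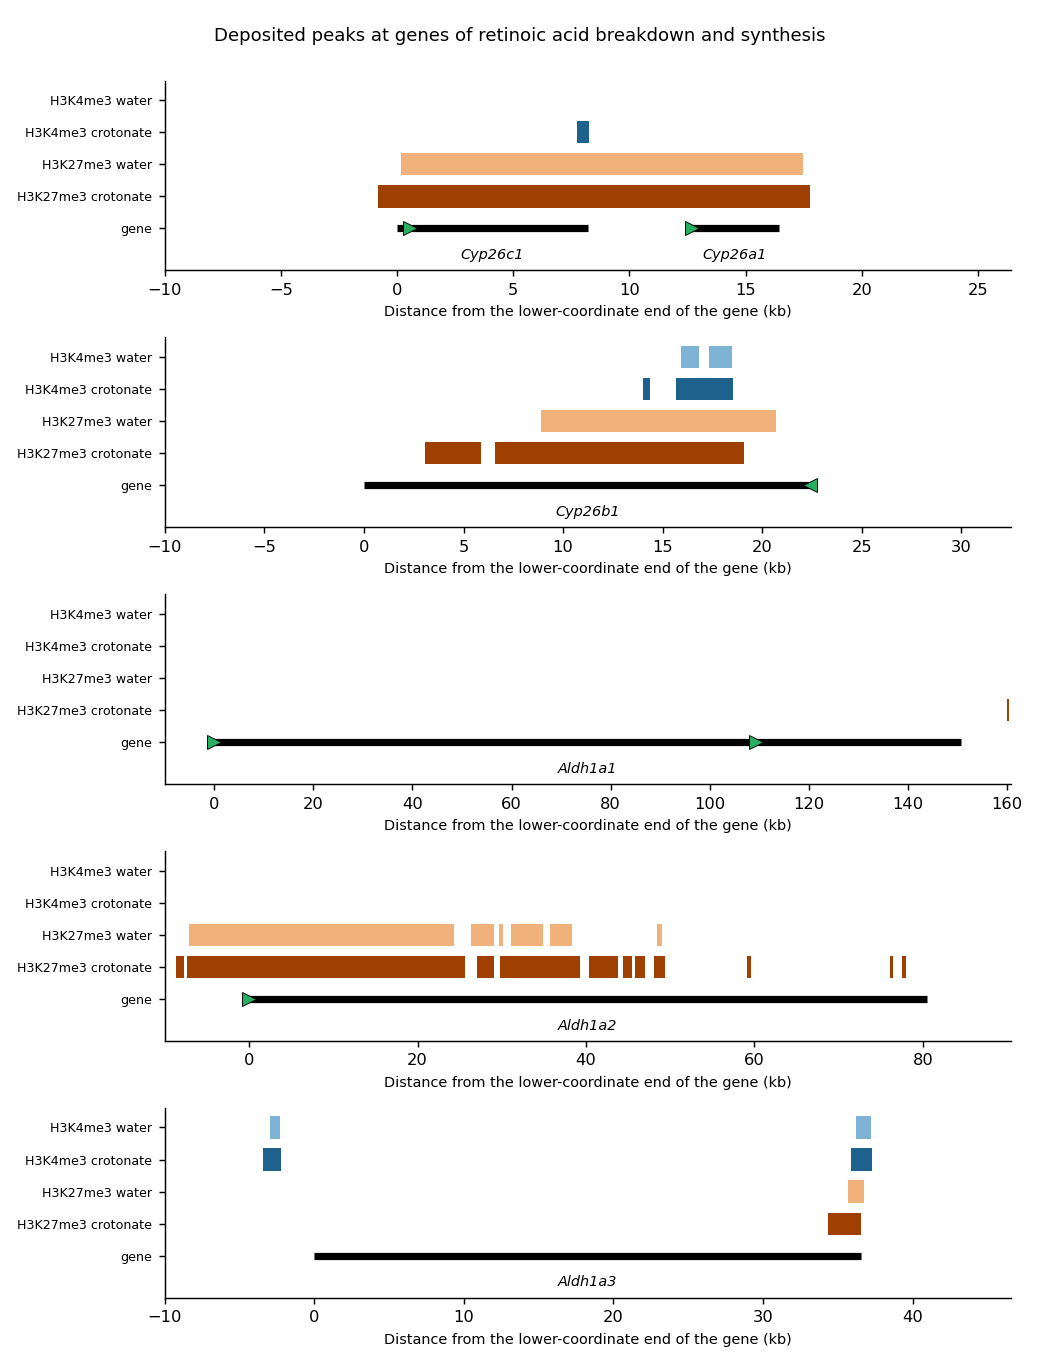
Peaks of each mark and treatment (rows) along the genes of breakdown and synthesis, with distance in kb from the lower-coordinate gene end on the x axis, the gene span as a black bar and listed start sites as green arrowheads pointing in the direction of transcription. The maps show Polycomb domains over the Cyp26 genes and Aldh1a2, no peak inside Aldh1a1, and both marks together at the upper end of Aldh1a3, for which no start is listed. The x scale differs between panels, and very short peaks are drawn at a minimum width.

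Among the synthesis genes, Aldh1a2, which makes most retinoic acid of the early embryo, had the longest Polycomb cover of the 10 genes and no H3K4me3 peak in either list. It lies on chromosome 9 from 71215789 to 71296243. The main domain spanned 71208670 to 71240131 after water (31.5 kb) and 71208425 to 71241462 after crotonate (33.0 kb), and it held the listed start in both. This was among the strongest peaks of each list, with −log10 q of 284 (above 99.7%) and 291 (above 99.6%). In the whole region, 6 peaks covered 41.6 kb after water and 11 peaks covered 53.8 kb after crotonate, or 41.4% and 53.6% of it.

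Beyond the main domain of Aldh1a2, the crotonate list held more H3K27me3 peaks, as it did over the whole genome (7643 after water and 15879 after crotonate). The covered length in the region was 1.29 times that after water, against a median of 1.42 over all genes with the mark in both lists. The separate water peaks of 498, 3814 and 2630 bp lay within 1 crotonate peak of 9590 bp, from 71245525 to 71255114, apart from the first 89 bp of the shortest. Of the 11 crotonate peaks 7 had no counterpart after water. The longest of these measured 3399 bp with 24 steps at the summit (15.4 to 35.7) and −log10 q of 12.1. The other 6 were 366 to 1230 bp long with 9 to 18 steps. The one with 18 steps, of 993 bp, lay outside the gene, 7.70 kb before it, in the non-coding gene Gm32511. The last inside the gene lay 77.5 kb from the listed start, where no peak was called after water beyond 48.4 kb.

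Aldh1a3, on chromosome 7 from 66390892 to 66427477, carried both marks at its upper end. H3K4me3 there spanned 66427100 to 66428083 after water (984 bp) and 66426744 to 66428154 after crotonate (1411 bp), with −log10 q of 17.3 and 23.3. Its fold enrichment was 10.5 and 9.1, with an implied background of 1.04 and 3.0. H3K27me3 spanned 66426552 to 66427657 (1106 bp) and 66425226 to 66427465 (2240 bp). This Polycomb peak was weak after water, with −log10 q of 1.89, above 12.6% of its list. After crotonate it had 5.41, above 60.3%. The implied background was 1.72 and 3.0. The marks overlapped by 558 bp after water and 722 bp after crotonate. A second pair of H3K4me3 peaks, 685 and 1236 bp long, lay 2318 and 2216 bp beyond the other end of the gene, inside the neighbour Lrrk1.

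Aldh1a1, on chromosome 19 from 20492583 to 20643463, had no peak of either mark inside its 151 kb span in any list. The region held 1 peak in all, H3K27me3 of 354 bp after crotonate, 9.22 kb past the gene, with 9 steps (4.12 to 17.1) and −log10 q of 1.48. Just beyond the 10 kb limit, at 10.6 kb, lay an H3K27me3 peak in each list, 346 bp long after water and 373 bp long after crotonate. The gain that this gene counts as therefore rests on 1 very weak peak and on where the limit was set. Its listed windows were poor in CpG, with observed to expected ratios of 0.213 and 0.0604.

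The receptor genes all carried H3K4me3 at a listed start in both lists. Rara, on chromosome 11 from 98927800 to 98974942, has 4 listed starts. The peak over the first and second spanned 98937145 to 98938634 after water (1490 bp) and 98936545 to 98939560 after crotonate (3016 bp), with −log10 q of 36.6 and 61.8. A second peak inside the gene measured 1632 and 1989 bp and lay at -3.56 and -3.36 kb from the last listed start, where negative values are upstream. A peak of 1243 bp from 98941321 to 98942563 was called after crotonate only, with 35 steps (24.4 to 48.7) and −log10 q of 8.74. All of these intragenic peaks were free of H3K27me3.

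The marks overlapped in the region of Rara only outside the gene, at the connexin gene Gjd3. H3K4me3 there measured 804 and 1421 bp, and H3K27me3 measured 3050 bp after water and 3480 bp after crotonate. A further crotonate H3K27me3 peak of 955 bp lay 8.28 kb past Rara, over no gene of the RefSeq table, and overlapped the same water peak. H3K4me3 in the whole region covered 3.93 kb after water and 7.67 kb after crotonate, 1.95 times as much and the highest ratio among the genes with the mark in both lists.

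Rarb, on chromosome 14 from 16430839 to 17082331 on the minus strand, had the H3K4me3 peak with the highest −log10 q of the members after water. The peak spanned 16572188 to 16575890 after water (3703 bp) and 16571595 to 16575890 after crotonate (4296 bp). It ran 3.29 and 3.88 kb downstream of the listed start and ended 0.414 kb upstream of it at the same base in both lists. The response element printed above lies within this stretch. The −log10 q was 71.0 after water, above 87.5% of that list, and 64.4 after crotonate, above 54.7%. Fold enrichment was 32.6 and 24.2, while the summit pileup was 44.18 and 54.73, each in the scale of its own list. In steps the same summits stood at 170 and 136, so the pileups show no rise. The background implied at the summit was 0.38 and 1.30. A peak of 302 bp, at -0.981 kb from the start, was called after crotonate only, with 27 steps (17.8 to 39.3) and −log10 q of 3.02.

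H3K27me3 at Rarb lay far from that start, and the marks did not overlap. After water, peaks of 1922 and 12210 bp lay at -152 and -155 kb from the listed start, within the annotated gene span. After crotonate the longer stretch was called as 2 peaks of 2897 and 9637 bp, and the shorter measured 1354 bp. Another 3 peaks of 484 to 775 bp were called after crotonate only, with 8 to 12 steps at their summits and −log10 q of 1.48 to 3.21. In total H3K27me3 covered 14.1 kb after water and 15.9 kb after crotonate, 2.10% and 2.37% of the longest region of the 10.

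Rarg, on chromosome 15 from 102234938 to 102257522 on the minus strand, has 2 listed starts. The internal start lay in H3K4me3 from 102245484 to 102248144 after water (2661 bp) and from 102245306 to 102248247 after crotonate (2942 bp). The −log10 q was 22.9 and 88.7, above 30.9% and 73.5% of the lists, with an implied background of 4.0 and 1.25. The start at the outer end lay in a peak of 953 bp after water. After crotonate the peak there measured 633 bp and began 0.157 kb upstream of that start.

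Rarg was the only one of the 10 genes with H3K27me3 after water and none after crotonate in this reading. The peak concerned measured 471 bp, from 102256588 to 102257058, just inside the outer end. It had 24 steps (15.4 to 35.7) and −log10 q of 2.82, above 28.4% of the water list. After crotonate 3 H3K4me3 peaks were called that had no counterpart after water. The 2 within Rarg measured 316 and 347 bp, with 16 and 20 steps, and the third, of 1052 bp, lay 9.66 kb away in Itgb7.

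**Figure D2:**
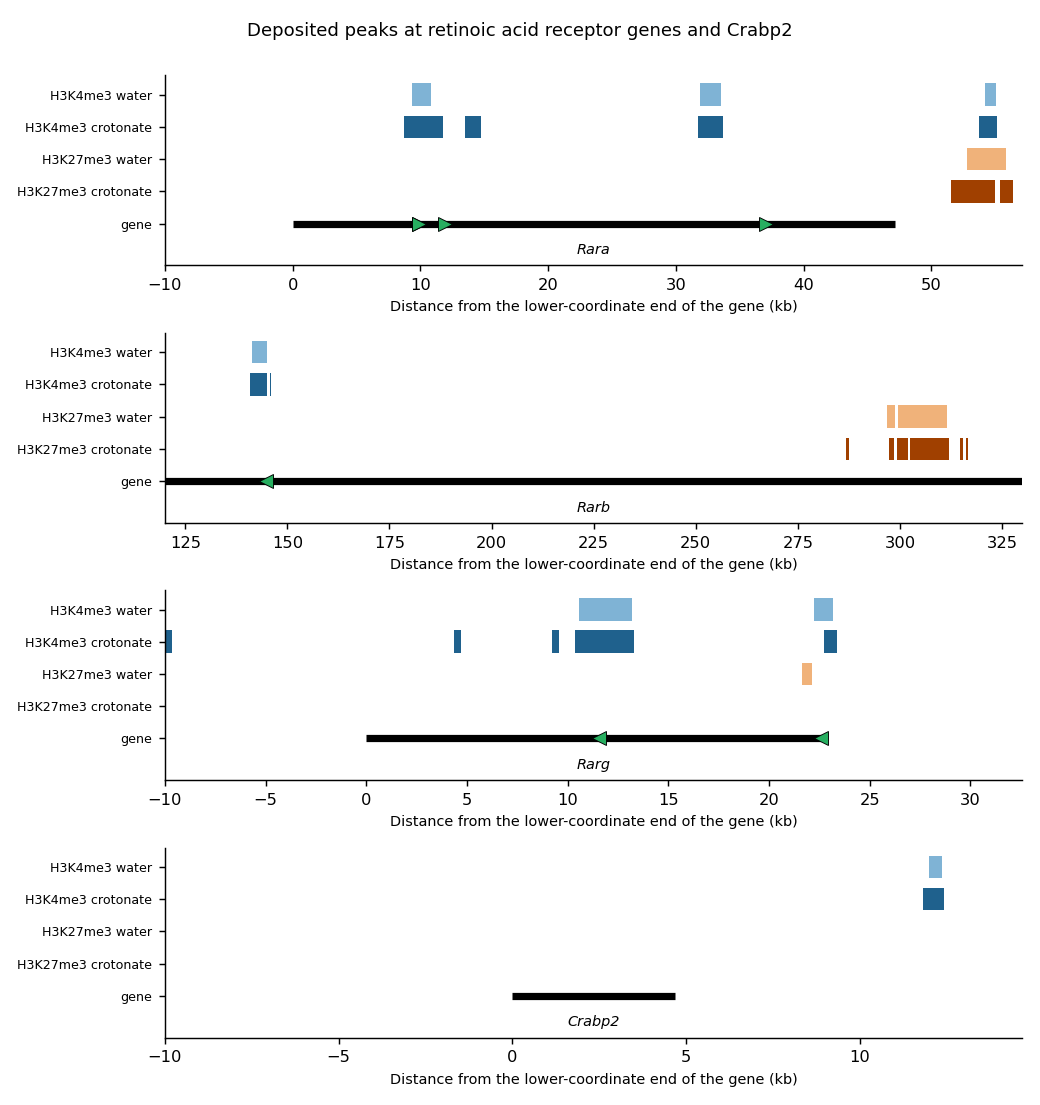
Peaks of each mark and treatment (rows) along the receptor genes and Crabp2, drawn as for the enzymes, with distance in kb from the lower-coordinate gene end on the x axis. H3K4me3 lies on listed starts of Rara, Rarb and Rarg, H3K27me3 of Rarb lies 142 kb or more from its start, and Crabp2 has no peak inside the gene. The panel of Rarb shows only the stretch that holds the peaks of its region.

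Crabp2, whose product hands retinoic acid to the receptors in the nucleus, is a short gene of 4.68 kb on chromosome 3 from 87948693 to 87953372. It had no peak of either mark inside the gene in any list. The region held an H3K4me3 peak, 369 bp long after water and 598 bp long after crotonate, 7.32 and 7.14 kb past the gene, inside the non-coding gene Gm32518. The −log10 q was 6.81 and 25.6, with summit pileups of 23.91 and 26.96, each in the scale of its own list. The implied background was 5.0 and 1.04, so the q values do not compare the peak between lists. Beyond the limit, 16.9 and 16.7 kb from Crabp2, stood the H3K4me3 peaks of Nes, 4697 and 5004 bp long.

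At the 13 listed start windows, which belong to 8 genes, the marks did not meet. Rara supplies 4 of them, the first and second overlapping each other, and Rarg and Aldh1a1 supply 2 each. Aldh1a3, whose marks overlap at its upper end, and Crabp2 have no listed window and are not counted. After water 5 windows lay wholly in H3K4me3, 3 wholly in H3K27me3, 5 in neither and 0 in both. After crotonate the counts were 4 wholly and 2 partly in H3K4me3, 3 in H3K27me3, 4 in neither and 0 in both. Over all 32817 windows, 37.6% touched H3K4me3 and 5.41% H3K27me3 after water, and 40.9% and 6.64% after crotonate. The windows in H3K4me3 all belonged to Rara, Rarb and Rarg. The 3 windows in H3K27me3 were those of Cyp26a1, Cyp26c1 and Aldh1a2 in both lists. Of all windows, 459 (1.40%) touched both marks after water and 915 (2.79%) after crotonate.

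Counted over the regions, H3K27me3 was present after water at 8 of 10 genes, against 14.1% of all protein-coding genes, and after crotonate at 8 of 10, against 20.1%. Aldh1a1 and Crabp2 lacked it after water, and Rarg and Crabp2 after crotonate. Since the genes were chosen knowing the peaks, nothing further is read from this. H3K4me3 was in the region of 6 of 10 after water (61.6% of all genes) and 8 of 10 after crotonate (65.3%). Overlapping peaks of both marks were found at Cyp26b1, Aldh1a3 and Rara after water, 3 of 10 against 4.75%, and also at Cyp26a1 and Cyp26c1 after crotonate, 5 of 10 against 8.54%. For Rara the overlap lay outside the gene, at Gjd3. The marks were read in separate bulk libraries, so overlapping peaks do not show both marks in the same cells. The regions of the 10 genes had a median length of 49.6 kb, against 37.2 kb over all genes, and longer regions have more room for peaks.

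Between treatments, H3K4me3 was gained at 2 of 10 genes, Cyp26a1 and Cyp26c1, through their shared peak, against 3.76% of all genes. It was lost at 0 of 10, against 0.0228%. A crotonate H3K4me3 peak without counterpart lay at 6 of 10 genes, against 18.1%, and a water peak without counterpart at 0 of 10, against 0.489%. There were 7 such crotonate peaks, 302 to 1243 bp long with 15 to 35 steps, and 7 of 7 were below the median −log10 q of their list. The covered length was over 1.5 times as long after crotonate at 4 of the 6 genes with H3K4me3 in both lists, Cyp26b1, Aldh1a3, Rara and Crabp2, against 28.2%. The median ratio was 1.55 over these 6 genes and 1.30 over all genes.

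H3K27me3 was gained at Aldh1a1, 1 of 10, against 6.51% of all genes, and lost at Rarg, 1 of 10, against 0.443%. Only genes without the mark after water can gain it, here Aldh1a1 and Crabp2. Only genes with it can lose it, and the loss was at 1 of 8 such members and 97 of 3079 such genes in the whole set. A peak in the water list only lay at Rarg, 1 of 10 against 1.94%, or 1 of 8 against 425 of 3079 among genes with the mark after water. Peaks in the crotonate list only lay at Cyp26b1, Aldh1a1, Aldh1a2 and Rarb, 4 of 10 against 14.5%. Of 12 such crotonate peaks, 354 to 3399 bp long with 8 to 24 steps, 8 were below the median −log10 q of their list. The covered length passed 1.5 times its water value at 1 of 7 genes, Aldh1a3, against 45.2%. The median ratio was 1.29 over these 7 genes and 1.42 over all genes with the mark in both lists.

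**Figure D3:**
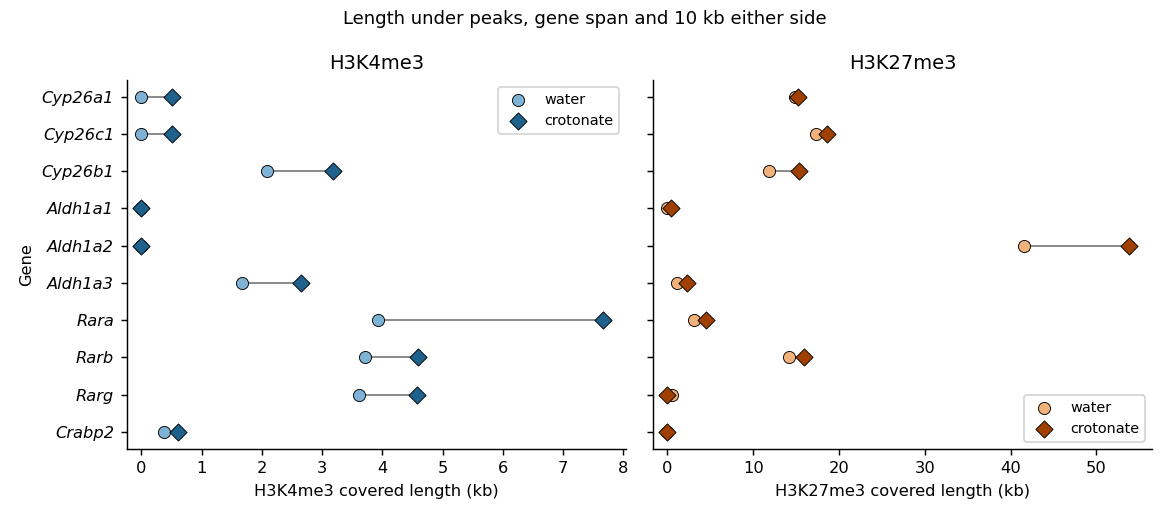
Length under peaks in kb (x axis) of H3K4me3 (left) and H3K27me3 (right) at each of the 10 genes (y axis), with circles for water and diamonds for crotonate, 1 library each and no error bars. H3K4me3 is longer after crotonate at each of the 6 genes with it in both lists, from 1.24 times at Rarb to 1.95 times at Rara. H3K27me3 of Aldh1a2 goes from 41.6 to 53.8 kb, or 1.29 times. The median for H3K27me3 over all genes with it in both lists is 1.42 times.

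**Figure D4:**
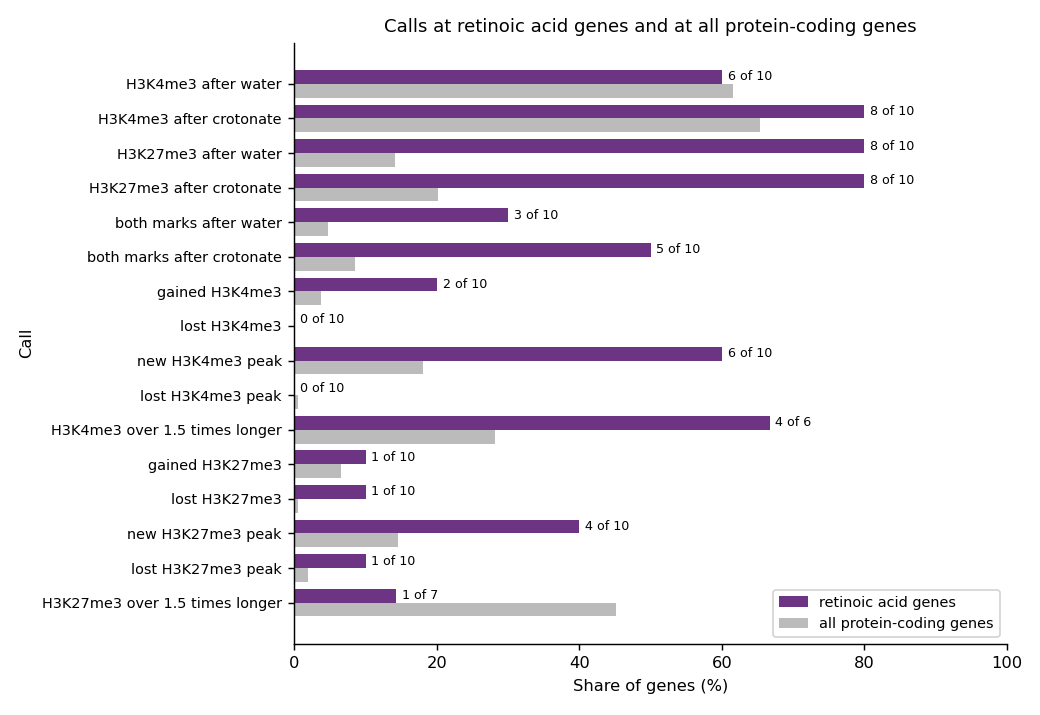
Share of genes in percent (x axis) that meets each call (y axis), for the 10 retinoic acid genes in purple, with their counts, and for all protein-coding genes in grey. The widest gaps are those for H3K27me3 in either list, 8 of 10 against 14.1% and 20.1%. The genes were chosen with these peaks known, so nothing is read from the gaps. Shares of loss are over all genes, though only genes with a mark after water can lose it. Rara counts only through peaks outside the gene. Rarg after water counts through a peak of 471 bp, and Aldh1a1 after crotonate through a peak of 354 bp outside the gene.

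The wider pathway was read the same way, from lists that were drawn up for these data. Of 24 genes of retinoid supply and binding, 10 had H3K4me3 after water and 16 after crotonate, so 6 gained it and 0 lost it. Over all genes the shares were 61.6% and 65.3%, with 3.76% gained and 0.0228% lost. New H3K4me3 peaks lay at the same 6 genes, against 18.1% of all genes. The new peaks by −log10 q were led by Rbp4, the plasma retinol carrier (895 bp, 12.5, wholly on H3K27me3), and Rdh12, a retinal reductase (428 bp, 8.67). Next came Lrat, which esterifies retinol (1.06 kb, 6.94, wholly on H3K27me3). These ranked above 16.5% to 23.1% of the crotonate list. H3K27me3 was at 4 of the 24 after water and 5 after crotonate, against 14.1% and 20.1% of all genes. New H3K27me3 peaks lay at 4 of the 24, against 14.5% of all genes. They were by Lrat (1419 bp, −log10 q 6.23), Crabp1 (884 bp, 5.73), Rbp4 (585 bp, 1.48) and Rdh12 (342 bp, 1.48). In the region of Crabp1, the paralogue of Crabp2, H3K27me3 covered 12042 bp after water and 18083 bp after crotonate. Rdh10, the retinol dehydrogenase required in the embryo, had H3K4me3 over 3.44 and 3.73 kb of its region and no H3K27me3 there.

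Of 14 retinoid X receptor and co-regulator genes, 13 had H3K4me3 in both lists, and Rxrg had none in either, against 61.6% and 65.3% of all genes with the mark. H3K4me3 covered 2.48 kb of the Rxra region after water and 3.79 kb after crotonate, and 6.45 and 10.3 kb of the Rxrb region. The Rxrb region is 26.6 kb long with 10 kb either side, and its cover was not split between gene and flanks. Rxrg, the receptor gene restricted in tissue, had H3K27me3 over 1.27 kb of its region after water and 6.91 kb after crotonate. New H3K27me3 peaks lay at 3 of the 14 genes, against 14.5% of all genes. Rxra gained the mark, 1 of 14 against 6.51%, in 4 short peaks, the strongest of 354 bp with 14 steps and −log10 q of 3.78. Ncoa2 had a new H3K27me3 peak of 534 bp (−log10 q 3.21) nearby. New H3K4me3 peaks lay at 4 of the 14, against 18.1% of all genes. These included peaks by Ncoa3 (331 bp, 7.70) and in Ncoa1 (383 bp, 3.90), both co-activator genes, and in Ppard (838 bp, 3.59), a nuclear receptor gene. Both marks overlapped at 0 of the 14 genes in either list, against 4.75% and 8.54% of all genes.

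Of 20 genes that respond to retinoic acid, 15 had H3K27me3 in both lists, against 14.1% and 20.1% of all genes. H3K4me3 was at 10 after water and 13 after crotonate, against 61.6% and 65.3%. Overlapping marks were at 5 after water and 9 after crotonate, against 4.75% and 8.54%. New H3K4me3 peaks lay at 10 of the 20, against 18.1% of all genes, and new H3K27me3 peaks at 3, against 14.5%. A peak was lost at 1 of 20 for each mark, against 0.489% for H3K4me3 and 1.94% for H3K27me3. A new H3K4me3 peak by Meis1, a Hox cofactor gene, measured 591 bp (−log10 q 12.5, wholly on H3K27me3), and one at Foxa1, a floor plate and endoderm factor gene, 281 bp (7.45, wholly on H3K27me3). Meis2 gained a peak of 383 bp (9.16) and lost one of 339 bp (2.14). New H3K27me3 peaks measured 1656 bp by Isl1 (4.16) and 397 bp by Tbx1 (2.51), both transcription factor genes. Nr2f1, a cortical patterning gene, lost an H3K27me3 peak of 609 bp with −log10 q of 6.51 beside the gene, where the total cover was 24975 bp after water and 25135 bp after crotonate.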

How the data were processed

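Peak lists of 4 CUT&Tag libraries were used, H3K4me3 and H3K27me3 after water and crotonate, with 1 library each. The submitters' processing notes name Bowtie2 2.4.1, SAMtools 1.10, Picard 2.22.0, MACS2 2.2.7.1 and the build GRCm38. Their settings and the background library were not given in the sources used here. Per the file headers, the deposited columns hold summit pileup, a signal scaled per library by the authors' caller, −log10 of p and q, and fold enrichment, a ratio to local background. Each peak's length in bp is another deposited value. These values are the authors' and describe peaks within 1 list.

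Pileups were whole multiples of 1 step per list (100% within 0.006). Implied background was (pileup + 1) / fold − 1, a reading the headers do not state. It gave −log10 p within 1% of the deposited value for 99.5% to 100% of peaks. Overlaps of at least 1 bp were counted with Python 3.11.15, numpy 2.4.6, pandas 2.3.3 and scipy 1.17.1 after the code was tested on simulated data. Figures used matplotlib 3.10.9. A mark was gained when called in the region after crotonate only, and a peak was new when no peak of the other list overlapped it. Genes and promoters came from RefSeq tables of GRCm38.p6. Strand was taken from the promoter table, which lists no start for Aldh1a3 and Crabp2.

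The 10 genes, the 3 wider lists and the markers were chosen with earlier results of these data known. Of the wider lists, genes that gained or lost a mark or a peak were named, up to 4 per list, mark and direction by −log10 q. Some genes that this rule names are not reported here. Rdh10, Crabp1, Rxrb and Rxrg are further examples chosen after their values were seen.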

Additional observations from a re-analysis of the deposited data

How the results depend on the processing

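Over 5 alternatives for every value and a reciprocal overlap of 50% for 3 of them, 66 of 78 values stayed within 1.5 times the reported one. This tally compares counts and lengths, not which genes were counted. It includes the loss of H3K4me3, which was 0 in every setting. The covered length of all 10 genes after crotonate over that after water was 1.55 for H3K4me3 (1.45 to 1.53 under the alternatives) and 1.24 for H3K27me3 (1.16 to 1.28). With the gene span alone, gains were 1 for H3K4me3 (Cyp26c1) and 0 for H3K27me3, and overlapping marks after crotonate were at 3 genes. The gain of H3K27me3 also fell to 0 with 25 kb either side, with fold enrichment of at least 5 and with lists of equal length. The loss at Rarg fell to 0 with −log10 q of at least 5 and with fold enrichment of at least 5. With these thresholds H3K27me3 after water was at 6 genes instead of 8 each time, and after crotonate at 7 and 6 genes. The gene span alone gave 7 genes after water and 6 after crotonate, and 25 kb either side gave 9 and 8. New H3K4me3 peaks were at 4 genes instead of 6 with −log10 q of at least 5 and with lists of equal length. With fold enrichment of at least 5 they were at 5 genes. Crabp2 was among them because its water peak, with a fold enrichment of 4.15, was removed. Cyp26b1 and Rarb dropped out in each of these settings. The gene span alone gave 5 genes and 25 kb either side gave 7. New H3K27me3 peaks were at 2 genes with fold enrichment of at least 5 and with lists of equal length, Aldh1a2 and Cyp26b1 each time. With −log10 q of at least 5, the gene counted as gaining H3K27me3 was Aldh1a3 and the one with a lost H3K27me3 peak was Rarb. Lost H3K27me3 peaks were at 2 genes with lists of equal length and at 3 with the reciprocal overlap. The cause was not tested beyond what each setting removes. Depth is unknown, so a peak called in 1 list only can lie just under the threshold in the other. No paired analysis was possible because there is 1 library per mark and treatment.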

Other observations

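Promoters with the 5-base spaced repeat were mostly outside both marks in these cells. Of 32 such windows, 2 (6.25%) touched H3K4me3 after water and 3 (9.38%) after crotonate, against 37.6% and 40.9% of all 32817 windows. H3K27me3 was at 4 of 32 (12.5%) in each list, against 5.41% and 6.64%. The windows with the repeat had a median CpG observed to expected ratio of 0.297, against 0.383 over all windows, and its part in these shares was not tested. Most of these windows belonged to genes named only by Gm numbers, and those of Gm35953 overlapped each other. The part of this make-up in the shares was not tested either. The 5 windows with any peak were those of Rarb, Cyp26a1, Gm32342, Prokr2 and Syndig1, and those of Cyp26a1 and Gm32342 hold the same site. The window of Prokr2, a prokineticin receptor gene, lay in H3K27me3 in both lists and in H3K4me3 after crotonate only. The window of Syndig1, which encodes a synaptic protein, touched both marks in both lists.

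The 1-base spaced repeat gave other shares: 30 of 73 windows (41.1%) touched H3K4me3 after water and 32 (43.8%) after crotonate, and 0 and 1 (1.37%) touched H3K27me3. With the 2-base spacing, 7 of 88 (7.95%) touched H3K4me3 in each list, at a median CpG ratio of 0.110, against 0.473 for the 1-base spacing. These windows were described and not tested.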
